A study of Gallus gallus with 60 samples.

Results

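The miRNAs described here are the predicted ones in 5 tissues of the adult Tibetan chicken, that is, the rows of the tissue table whose name does not begin with gga-, the prefix of chicken miRNAs listed in miRBase. Of the 707 miRNAs in the table, 137 were predicted and 570 were known. The predicted rows are named new-gga-miRNA-0001 to new-gga-miRNA-0135, with 2 further rows marked by a star, new-gga-miRNA-0026* and new-gga-miRNA-0046*. A total of 122 predicted miRNAs were above 0 TPM in at least 1 of 15 samples, and 15 were at 0 in all 15. Selection here used the name alone and no level. The authors gave such names to miRNAs predicted from reads of their own samples, so the list itself is not free of these levels. The tests below, the number detected per tissue and the members seen in 1 tissue are to be read with this limit.

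MicroRNAs are short RNAs cut from hairpin precursors by the enzymes Drosha and Dicer, and they guide Argonaute proteins to messenger RNAs that pair with their seed, which lowers translation or stability of the target. A predicted miRNA is a place in a genome, here that of the zebra finch, where sequenced small RNAs stack on a predicted hairpin in the pattern that Dicer leaves, and which matches no listed miRNA. Many known miRNAs are abundant in 1 cell type, such as miR-122 in hepatocytes, miR-124 in neurons and miR-142 in blood cells. No role was annotated for any of the predicted rows in the sources used here, and their letters, genome positions and hairpins were not analysed here.

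The libraries came from the liver, ovary, brain, spleen and kidney of Tibetan chickens aged 300 days, with 3 samples for each tissue. The samples are named here by tissue and replicate number, such as Liver 1. The labels do not say which samples came from separate birds, so the p-values below measure only the spread between these samples. The study also sequenced embryos and pectoral muscle, but the predicted miRNAs of those samples were not joined to the ones described here.

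The values are called TPM, but each was a whole multiple of what 1 read is worth in its sample (tolerance 0.05 reads, 100% of values), so they are reads divided by the library total of the sample and brought to a fixed scale (RPM), with no correction for length. Library totals computed from these steps were 10734898 to 13060558 reads (median 11623296), and 3 reads, the amount taken here as the floor, were worth 0.230 to 0.279 TPM. The summed TPM of all listed miRNAs was 410664 in Kidney 1 and 728171 to 916277 in the other 14 samples. Known markers matched the labels of liver (2 of 2 rows of the list highest there), brain (17 of 17), ovary (2 of 2) and spleen (7 of 9). For the kidney, none of the 4 rows of miR-194, miR-215 and miR-204 was highest there (summed 16.1 to 41.2 TPM), while all 6 rows of the epithelial miR-200 and miR-429 family were (summed 4041 to 7873 TPM). In bulk tissue, fewer cells of a type and less RNA per cell cannot be told apart.

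Predicted miRNAs were detected in fewer samples and at lower levels than known ones. Of those above 0, 16 predicted miRNAs (13.1%) were found in all 15 samples, against 217 known ones (39.7%). Detection was restricted to 1 tissue for 49 predicted miRNAs (40.2%) and 123 known ones (22.5%), and 24 predicted miRNAs were found in 1 sample only. The median of the mean levels was 0.263 TPM for predicted and 0.914 TPM for known miRNAs. Still, 37 predicted miRNAs had a mean of at least 1 TPM, 11 of at least 100 TPM and 7 of at least 1000 TPM. These shares are descriptions of the lists and were not tested.

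Brain was the tissue of highest mean level for 59 of the 122 predicted miRNAs (48.4%), a share close to that of known miRNAs (48.9%). Among rows with a mean of at least 1 TPM, the shares were further apart, 18 of 37 predicted miRNAs (48.6%) against 39.0% of known ones. Liver was highest for 28, spleen for 18, ovary for 15 and kidney for 2. The kidney share of predicted miRNAs was 1.64%, and that of known miRNAs was 6.78%. Levels fell off with the number in the name (Spearman's rho -0.64 over 135 numbered rows, a description across rows), so the low numbers hold most of the abundant members. An exception was new-gga-miRNA-0132, described below.

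Brain samples held the most different predicted miRNAs and kidney samples the fewest. Predicted miRNAs above 0 TPM numbered 73, 68 and 55 in the 3 brain samples and 26, 30 and 29 in the 3 kidney samples. The liver had 56, 51 and 49, the ovary 50, 48 and 45, and the spleen 38, 45 and 45. All 3 kidney samples lay below the other 12, whereas Brain 3 lay below Liver 1. Brain 1 and Brain 2 had the largest library totals of the 15 samples (13008549 and 13060558 reads), and Brain 3 had 10761310 reads. The part of library size in these counts was not tested. The brain mean exceeded that of the other 12 samples by 22.7 miRNAs (exact two-sided permutation test, p = 0.00659, adjusted p = 0.0165 over 5 tissues), and the kidney mean was 23.6 lower (p = 0.0022, the smallest that splits of 3 from 15 samples can give, adjusted p = 0.0110). Without Kidney 1, the kidney difference was -22.4 (same permutation test, p = 0.0220, adjusted p = 0.0549). Fewer splits are possible without that sample, so the smallest p that the test can give is larger. At a limit of 1 TPM, the same permutation test gave differences of 12.6 for the brain (adjusted p = 0.0330) and -15.75 for the kidney (adjusted p = 0.0110). For the liver, ovary and spleen the adjusted p was 0.659, 0.967 and 0.659. Known miRNAs above 0 TPM were likewise most numerous in the brain samples (389 to 427) and fewest in the kidney samples (290 to 304).

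**Figure D1:**
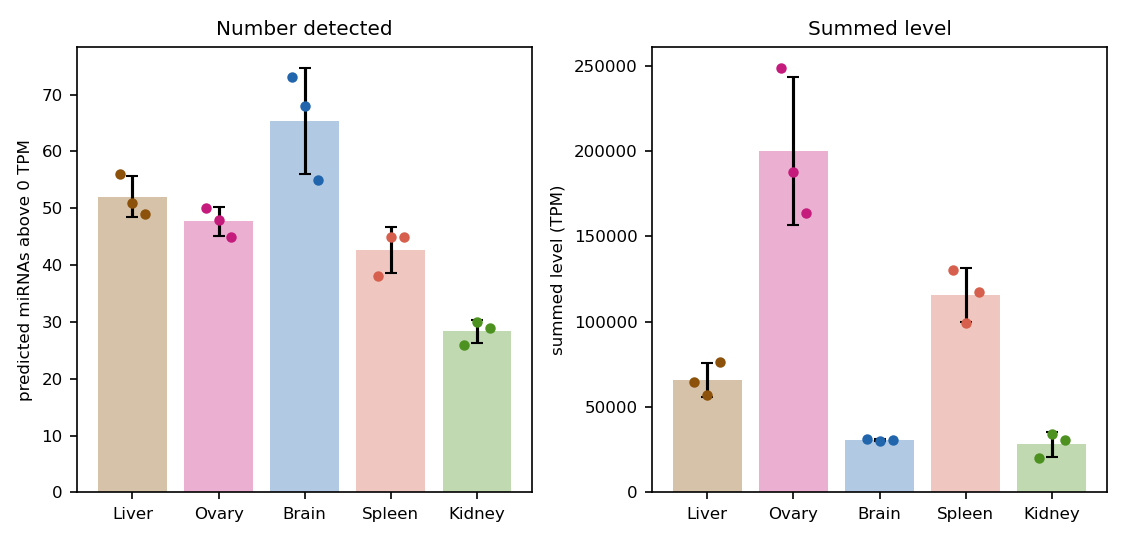
Number of predicted miRNAs above 0 TPM (left) and their summed level in TPM (right) in each of 15 samples, by tissue. Bars are means of 3 samples, error bars are SD and points are samples. The 3 kidney samples held 26 to 30 predicted miRNAs, and the 3 ovary samples had summed levels of 163955 to 248530 TPM, above the other 12 samples.

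The ovary carried the largest amount of predicted miRNA. Their summed level was 248530, 187612 and 163955 TPM in the ovary, 130345, 99249 and 117532 TPM in the spleen, and 64402, 56822 and 76220 TPM in the liver. In the brain it was 31476, 30146 and 30609 TPM, and in the kidney 19900, 34134 and 30641 TPM. The brain thus had the most kinds of predicted miRNA but one of the smallest sums. The ovary mean was 139909 TPM above the mean of the other 12 samples (exact two-sided permutation test, p = 0.0022, adjusted p = 0.0110), while brain and kidney (adjusted p = 0.165 for both) and liver and spleen (0.578 for both) did not pass. This order rested on a single miRNA: without new-gga-miRNA-0001 the difference of the ovary from the others was -6301 TPM, and the spleen mean was 18345 TPM above them (adjusted p = 0.0110).

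New-gga-miRNA-0001 held 78.0% of the summed mean level of all predicted miRNAs, and the 10 highest members together held 99.3%. It ranked first among all listed miRNAs in the ovary, and its ranks were 3 in spleen, 5 in liver, 6 in kidney and 14 in brain. new-gga-miRNA-0001 was at 236333, 172034 and 148702 TPM in the ovary and 97232, 63212 and 84502 TPM in the spleen. In the liver it was at 34443, 34439 and 53372 TPM, in the kidney at 15207, 26269 and 22857 TPM and in the brain at 17297, 11449.5 and 13474 TPM. All 3 ovary samples of new-gga-miRNA-0001 lay above all spleen samples, and the spleen samples above all liver samples. As a share of the library, new-gga-miRNA-0001 took 18.6% ± 4.54 in the ovary, 8.16% ± 1.72 in the spleen, 4.08% ± 1.09 in the liver, 2.14% ± 0.566 in the kidney and 1.41% ± 0.297 in the brain (SD, n = 3). Its log2 difference between the ovary and the mean of the other 4 tissues was 2.55 (SE 0.21, limma, adjusted p = 2.04e-06). Ovary exceeded spleen by 1.18 (adjusted p = 0.00562) and spleen exceeded liver by 1.01 (adjusted p = 0.0165) on the log2 scale, whereas kidney and brain, the lowest pair, differed by 0.59 (SE 0.27, adjusted p = 0.0912) and were not separated. The summed level of the skeletal muscle list (11 rows, 6 of them highest in the ovary) was also highest there, at 2037 to 3817 TPM against 137 to 1081 TPM elsewhere, and its part in this result was not tested.

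Each predicted miRNA was compared among tissues on the log2(TPM + 1) scale, in a fit over all 668 rows above 0 in at least 1 sample. On this scale the change of a miRNA near or below 1 TPM is understated. At an adjusted p of at most 0.05, 66 of 122 predicted miRNAs differed among the 5 tissues (54.1%), against 60.8% of all rows tested. Among the 37 members with a mean of at least 1 TPM, 29 differed (78.4%), against 92.5% of the 306 rows at that level. The 8 that did not pass include new-gga-miRNA-0132, new-gga-miRNA-0015, new-gga-miRNA-0023 and new-gga-miRNA-0027, whose samples disagreed within a tissue. A member was then called in 1 tissue when the adjusted p was at most 0.05 and the difference from the mean of the other 4 was at least 2-fold. Such calls numbered 18 in the liver (11 higher, 7 lower), 7 in the ovary (5 higher, 2 lower), 27 in the brain (20 higher, 7 lower), 13 in the spleen (8 higher, 5 lower) and 21 in the kidney (2 higher, 19 lower). The corresponding shares of all rows called were 22.5%, 12.7%, 29.9%, 20.2% and 28.0%, and those of the members 14.8%, 5.74%, 22.1%, 10.7% and 17.2%. The member calls include new-gga-miRNA-0133 in the liver, new-gga-miRNA-0034 and new-gga-miRNA-0053 in the ovary and new-gga-miRNA-0021 in the brain. Such rows were at 0 in every other tissue and entered the fit only through the tissue where they were high. Their calls are therefore not read as a test. By direction, all rows were called higher or lower in 10.9% and 11.5% of cases for the liver, 7.93% and 4.79% for the ovary, 21.3% and 8.68% for the brain, 8.53% and 11.7% for the spleen and 3.44% and 24.6% for the kidney. Between pairs of tissues, the same rule called 22.9% of all rows for liver and ovary, 32.0% for liver and brain, 17.7% for liver and spleen, 23.8% for liver and kidney, 30.4% for ovary and brain, 18.7% for ovary and spleen, 21.6% for ovary and kidney, 32.5% for brain and spleen, 34.4% for brain and kidney and 23.5% for spleen and kidney. Centring each sample on its median miRNA gave 5 higher and 9 lower calls in the ovary and 6 higher and 6 lower calls in the spleen. Such centring also shifts rows at 0, so its counts are not fully comparable with the main ones. Rescaling to the summed TPM of all listed miRNAs gave 6 higher and 4 lower calls in the ovary. Over the 306 rows with a mean of at least 1 TPM, centring moved the higher and lower calls from 51 and 32 to 44 and 63 in the ovary. In the spleen it moved them from 54 and 78 to 47 and 85, and rescaling gave 53 and 36 in the ovary. With edgeR on recovered reads the higher and lower calls were 25 and 6 in the liver, 13 and 2 in the ovary, 52 and 6 in the brain, 18 and 2 in the spleen and 2 and 17 in the kidney. With 0.1 as the pseudocount they were 21 and 14, 9 and 11, 37 and 13, 12 and 11, and 2 and 34 in the same order. Counts over all rows are not given here for that pseudocount, so these changes are not read as particular to the members. The 5 comparisons share samples, so a member high in 1 tissue can be called lower in the others: new-gga-miRNA-0021, at 0 outside the brain, was called lower in each of the other 4 by limma, though in none of them by edgeR. Those 4 calls are among the lower calls counted above. They follow from the brain values alone and test nothing in the other tissues.

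**Figure D2:**
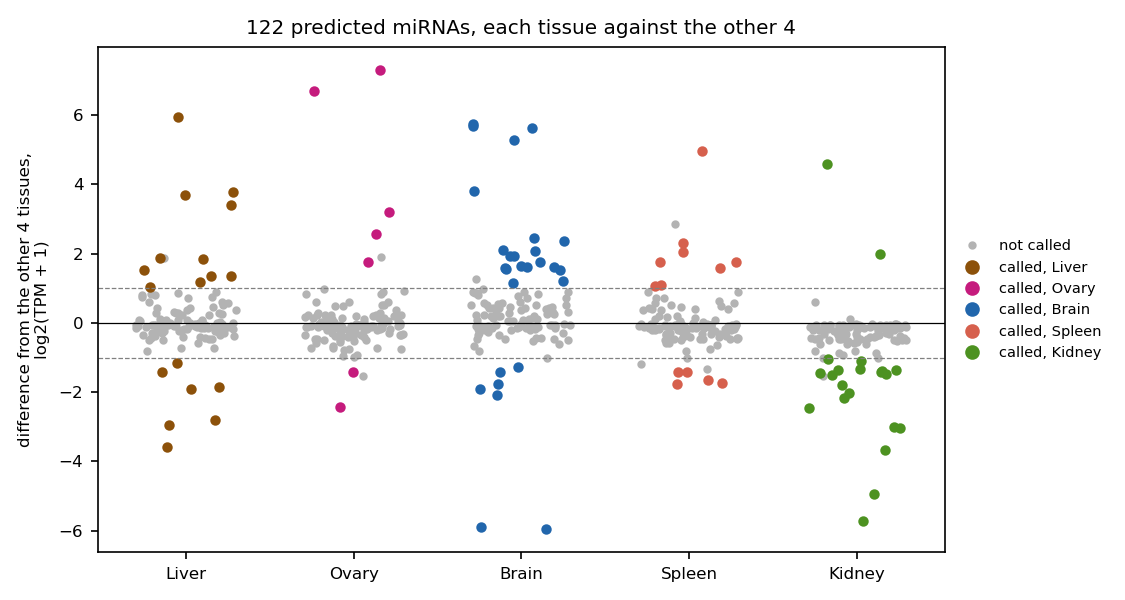
Difference of each of 122 predicted miRNAs between a tissue and the mean of the other 4 tissues, in log2(TPM + 1). Each point is a miRNA, coloured where called (adjusted p of at most 0.05 and at least 2-fold, dashed lines) and grey otherwise. Brain calls were mostly higher (20 of 27) and kidney calls mostly lower (19 of 21).

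In the liver the largest rise was that of new-gga-miRNA-0006. Its values were 12273, 5157 and 1608 TPM in the liver, 317, 354 and 235 in the ovary, 159.8, 205 and 185 in the brain, 73.3, 75.7 and 98.0 in the spleen and 0, 21.0 and 15.8 in the kidney. The 3 liver samples differed widely among themselves, yet the lowest was above each of the other 12, and Kidney 1 was listed at 0. The liver difference was 5.95 (SE 0.78, limma, adjusted p = 5.84e-05). Ovary, brain and spleen followed in this order, and their samples did not overlap. The fit still did not separate ovary from brain (limma, adjusted p = 0.613) or brain from spleen (adjusted p = 0.377). Each of these differences had an SE of 0.99, from a spread that also takes in the liver samples and Kidney 1. These p-values therefore do not show that the tissues were alike, and ovary against spleen is not given here.

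A far less abundant member, new-gga-miRNA-0026, had 37.2, 15.7 and 3.54 TPM in the liver, 0.627 TPM in Ovary 2 and 0 in the other 11 samples. Its liver samples fell in the same order as those of new-gga-miRNA-0006, whose level was 329 to 454 times as high in the 3 samples. The liver difference of new-gga-miRNA-0026 was 3.77 (SE 0.43, limma, adjusted p = 1.93e-05). Its star row, new-gga-miRNA-0026*, was at 0 in all 15 samples. new-gga-miRNA-0024 had 20.8, 19.5 and 37.4 TPM in the liver, 6.85, 0 and 14.8 in the spleen and at most 2.69 TPM elsewhere, and its liver difference was 3.69 (SE 0.59, limma, adjusted p = 3.11e-04). new-gga-miRNA-0133 was found only in the liver samples, at 2.35, 3.81 and 1.96 TPM, and its liver mean was at least 9.71-fold higher than 3 reads in any other sample. Over the 15 samples, the known miRNAs closest to new-gga-miRNA-0006 in log2(TPM + 1) were gga-miR-148a-5p (Pearson's r 0.91) and gga-miR-16-1-3p (r 0.90). Such correlations are descriptions, since the 15 points share 5 tissues. Rows of the red blood cell list (2 rows, both arms of miR-144) summed to 431 to 919 TPM in the liver and 814 to 1818 TPM in the spleen, against 106 to 534 TPM elsewhere, and their part in the liver and spleen results was not tested.

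**Figure D3:**
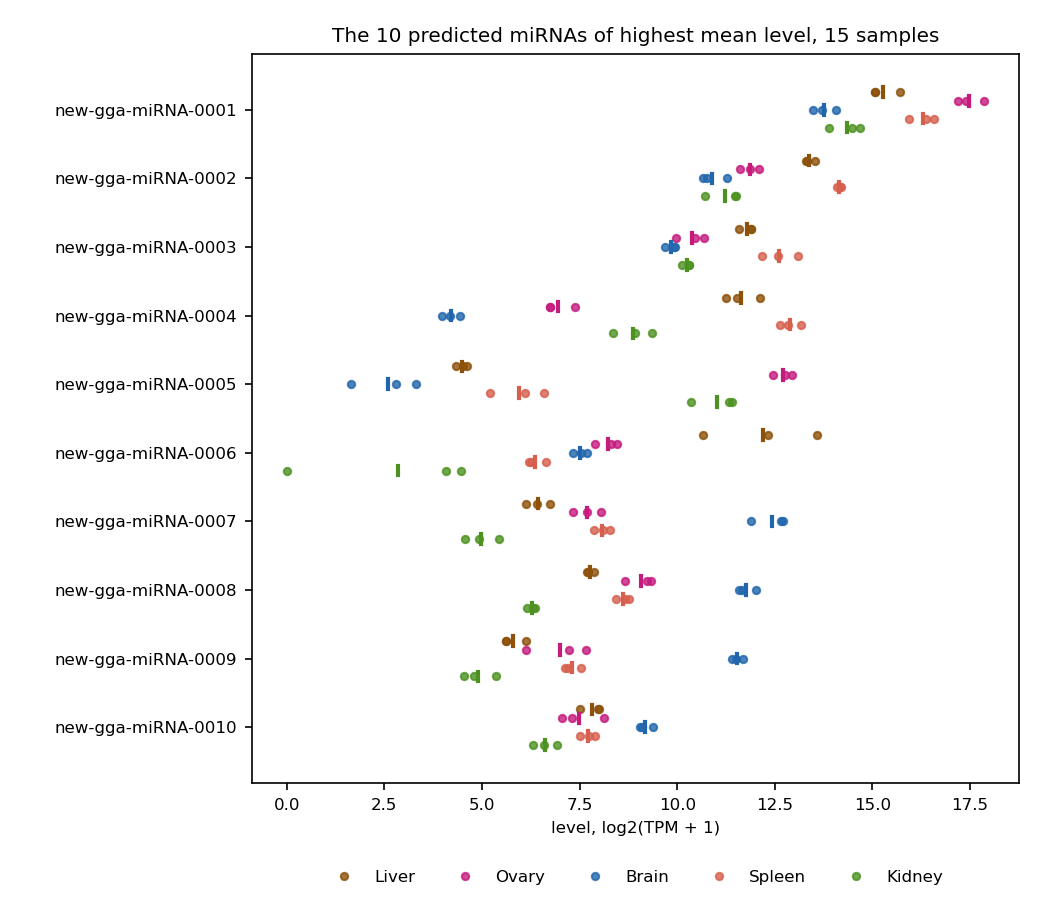
Level of the 10 predicted miRNAs with the highest mean, in log2(TPM + 1). Points are samples, coloured by tissue, and short vertical lines are means of the 3 log2 values. new-gga-miRNA-0001 was highest in the ovary, new-gga-miRNA-0002 to new-gga-miRNA-0004 in the spleen, new-gga-miRNA-0005 in the ovary, new-gga-miRNA-0006 in the liver and new-gga-miRNA-0007 to new-gga-miRNA-0010 in the brain.

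The ovary had few calls but some of the widest differences. new-gga-miRNA-0014 was at 229, 511 and 664 TPM in the ovary and at 0 to 8.08 TPM in the other 12 samples, and its difference was 7.30 (SE 0.38, limma, adjusted p = 3.44e-08), the largest of any predicted miRNA. Brain came next with 3.00, 5.97 and 8.08 TPM, which was 6.08 lower on the log2 scale (SE 0.47, adjusted p = 3.85e-07). The groups did not overlap, and Ovary 1 was the lowest of the 3 ovary samples. Its closest known miRNAs were gga-miR-449c-5p (r 0.99), with means of 91.7 TPM in the ovary and 1.55 TPM in the brain, and gga-miR-449a (r 0.98), with means of 29.0 and 0.345 TPM. The miR-449 family is known in mammals from cells that build motile cilia.

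Ovary and kidney shared high levels of new-gga-miRNA-0005. Its values were 5565, 7928 and 6983 TPM in the ovary, 1301, 2585 and 2717 in the kidney, 94.6, 35.8 and 67.1 in the spleen, 23.5, 19.2 and 22.0 in the liver and 8.92, 5.97 and 2.14 in the brain. The tissues did not overlap, and each differed from the next by the call rule (adjusted p from 2.83e-06 to 0.0304). Against the mean of the other 4 tissues, the ovary was 6.71 (SE 0.35, limma, adjusted p = 3.44e-08), the kidney 4.59 (SE 0.35, limma, adjusted p = 9.43e-07) and the brain -5.96 (SE 0.35, limma, adjusted p = 1.99e-08). The ovary also held new-gga-miRNA-0034 alone, at 1.98, 13.2 and 17.7 TPM with 0 in the other 12 samples, a mean at least 39.3-fold higher than 3 reads. new-gga-miRNA-0053 was counted as higher there with 0, 3.52 and 7.48 TPM, with Ovary 1 at 0 like the other 12 samples. The row entered the fit only through Ovary 2 and Ovary 3, so no p-value is given for it. Without replicate 2 or 3 the call was lost.

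Brain had the largest number of higher calls, and 18 predicted miRNAs (14.8%) had all 3 brain samples above the other 12, against 20.2% of all rows. Among the abundant members, new-gga-miRNA-0007 was at 3779, 6488 and 6659 TPM in the brain and 22.7 to 310.2 TPM elsewhere, and new-gga-miRNA-0009 was at 2697, 2898 and 3316 TPM in the brain and 22.0 to 201 TPM elsewhere. Their brain differences were 5.63 (SE 0.22, limma, adjusted p = 5.64e-10) and 5.29 (SE 0.27, limma, adjusted p = 5.00e-09). Both had the same order of tissues, brain, spleen, ovary, liver and kidney, in which spleen and ovary were not separated (adjusted p = 0.457 and 0.748). Liver and kidney were not separated for new-gga-miRNA-0009 either (0.89 on the log2 scale, adjusted p = 0.0691). The ratio of new-gga-miRNA-0007 to new-gga-miRNA-0009 stayed between 1.03 and 2.32 over the 15 samples.

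new-gga-miRNA-0008 followed with 3249.8, 4112 and 3054 TPM in the brain and 69.8 to 644 TPM elsewhere, a difference of 3.82 (SE 0.14, limma, adjusted p = 2.21e-10). The brain level of new-gga-miRNA-0010 was 664, 525 and 547 TPM, and that of the other 12 samples 78.5 to 278 TPM, a difference of 1.77 (SE 0.20, limma, adjusted p = 1.15e-05). Liver, spleen and ovary were not separated for new-gga-miRNA-0010 (adjusted p = 0.989 and 0.767), and ovary exceeded kidney by 0.87 on the log2 scale (adjusted p = 0.0224), below the 2-fold limit. new-gga-miRNA-0013 had 286, 285 and 232 TPM in the brain, 26.8, 14.1 and 12.8 in the ovary and at most 8.27 TPM elsewhere. Its brain difference was 5.75 (SE 0.39, limma, adjusted p = 7.12e-08), and its closest known miRNAs were gga-miR-187-3p (r 0.96) and gga-miR-3532-3p (r 0.96).

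New-gga-miRNA-0021 was the clearest case of a miRNA seen in 1 tissue alone. It was at 36.6, 74.0 and 47.2 TPM in the brain (476, 967 and 508 reads) and at 0 in all 12 other samples. Its brain mean was at least 188-fold higher than 3 reads in any of those samples. No p-value is given for this pattern, since the row entered the fit only through its brain samples and had no spread elsewhere. A total of 10 predicted miRNAs showed this pattern of being above 0 in all 3 samples of a tissue and at 0 in the other 12. The brain held 6 of them, namely new-gga-miRNA-0021, new-gga-miRNA-0062, new-gga-miRNA-0063, new-gga-miRNA-0073, new-gga-miRNA-0095 and new-gga-miRNA-0115, the ovary held new-gga-miRNA-0034 and new-gga-miRNA-0124, and the liver held new-gga-miRNA-0081 and new-gga-miRNA-0133. The spleen and kidney held none. Of all 668 rows above 0 in at least 1 sample, 33 had this pattern, 10 of the 122 predicted and 23 of the 546 known miRNAs. Of the 23 known ones, 21 were in the brain. Apart from new-gga-miRNA-0021 and new-gga-miRNA-0034 the levels were low, with means of 0.524 to 2.84 TPM, and new-gga-miRNA-0124 had 4 to 8 reads per sample. By counting error alone, a 0 here limits the level to about that of 3 reads, and it does not show absence. Other predicted miRNAs were listed at 0 beside at least 10 TPM in the same tissue, as described below. The folds over 3 reads given here and above are therefore not firm bounds.

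**Figure D4:**
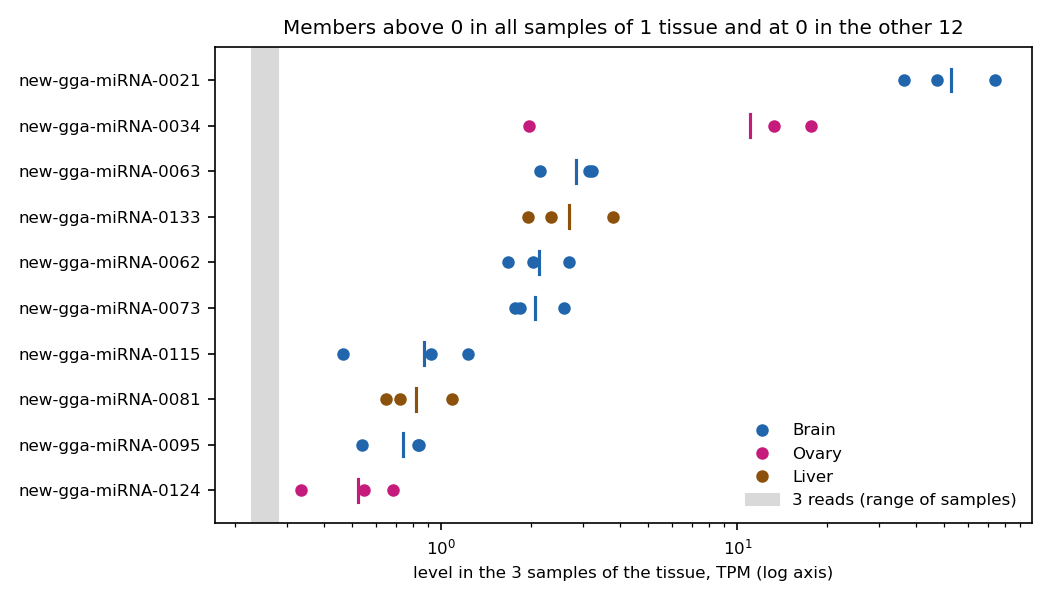
Levels in TPM (log axis) of the 10 predicted miRNAs that were above 0 in all 3 samples of 1 tissue and at 0 in the other 12. Points are samples, vertical lines are means, colours give the tissue and the grey band is the worth of 3 reads in the 15 samples. new-gga-miRNA-0021 in the brain (36.6 to 74.0 TPM) and new-gga-miRNA-0034 in the ovary (1.98 to 17.7 TPM) lay highest.

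Brain was also low for members that were abundant elsewhere. new-gga-miRNA-0004 was at 14.7, 17.1 and 20.8 TPM in the brain and 105 to 9191 TPM in the other 12 samples, a difference of -5.89 (SE 0.23, limma, adjusted p = 4.99e-10). For new-gga-miRNA-0005 all 3 brain samples were likewise below the other 12. new-gga-miRNA-0001, new-gga-miRNA-0002 and new-gga-miRNA-0003 were called lower in the brain by 2.09, 1.76 and 1.41 on the log2 scale (adjusted p = 3.39e-06, 2.49e-06 and 2.58e-05).

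In the spleen the highest calls were a group of abundant members. new-gga-miRNA-0004 was at 9191, 7357 and 6370.0 TPM in the spleen and 2424, 2951 and 4449 TPM in the liver. It was at 324, 651 and 486 TPM in the kidney and 107, 105 and 166 TPM in the ovary, so that with the brain it spanned a wide range in which no neighbouring tissues overlapped. Each step of this order passed the call rule (adjusted p from 6.38e-06 to 0.00718), and the spleen difference was 4.97 (SE 0.23, limma, adjusted p = 2.04e-08). The closest known miRNAs were gga-miR-142-5p (r 0.93) and gga-miR-142-3p (r 0.92), a miRNA of blood cells, with means of 91156 and 6979 TPM in the spleen.

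new-gga-miRNA-0002 was at 17615, 18478 and 18728 TPM in the spleen, 10337, 10063 and 11835 in the liver, 3143, 3705 and 4377 in the ovary, 1727, 2491 and 1622 in the brain and 1669.6, 2857 and 2923 in the kidney. new-gga-miRNA-0003 was at 4591, 8809 and 6091 TPM in the spleen, 3821, 3077 and 3827 in the liver, 1001, 1645 and 1403 in the ovary, 982, 970.2 and 825 in the brain and 1114, 1267 and 1264 in the kidney. In both miRNAs spleen was highest and liver next, and liver exceeded ovary by 1.53 and 1.43 on the log2 scale (adjusted p = 0.000161 and 0.000351). The gap between spleen and liver, 0.77 and 0.82, was below the 2-fold limit (adjusted p = 0.0237 and 0.0195). Their spleen differences were 2.31 (SE 0.17, limma, adjusted p = 9.90e-07) and 2.05 (SE 0.18, limma, adjusted p = 3.03e-06), and new-gga-miRNA-0002 was 1.50 to 3.84 times as high as new-gga-miRNA-0003 in the 15 samples. At a much lower level, new-gga-miRNA-0052 had 2.08, 2.90 and 2.57 TPM in the spleen, 0.466 TPM in Liver 3 and 0 in the other 11 samples.

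Kidney calls were nearly all lower, and this direction was common to the whole table. Over rows with a mean of at least 1 TPM, the median kidney difference was -1.11 for the 37 members and -1.10 for all 306 rows. The falls of new-gga-miRNA-0001 (-1.35), new-gga-miRNA-0002 (-1.34), new-gga-miRNA-0010 (-1.44) and new-gga-miRNA-0011 (-1.47) lay near that median, and after centring none of the 4 was called (-0.43, -0.42, -0.52 and -0.55). Their adjusted p after centring was 0.0804, 0.0382, 0.0265 and 0.00767 in turn (limma). All but new-gga-miRNA-0001 thus missed only the 2-fold limit. Centring moved the median of all rows to -0.18, and without Kidney 1 20 members were called (2 higher, 18 lower). The count over all rows without Kidney 1 is not given here. After centring, 11 members were called in the kidney (4 higher, 7 lower) in place of 21 (2 higher, 19 lower). Rows at 0 are shifted by centring too, so these counts are not fully comparable. Over all 306 rows with a mean of at least 1 TPM, the kidney calls moved from 22 higher and 164 lower to 43 higher and 50 lower. The counts of members were taken over all 122, with no such limit, so the bases differ. The 2 falls picked by the naming rule lay well beyond the median: new-gga-miRNA-0006, -5.73 (SE 0.78, limma, adjusted p = 6.67e-05), and new-gga-miRNA-0012, -4.95 (SE 0.60, limma, adjusted p = 2.60e-05). Both sizes take in samples listed at 0, Kidney 1 for new-gga-miRNA-0006 and Kidney 2 and Kidney 3 for new-gga-miRNA-0012. These 2 miRNAs were not the only members whose kidney samples all lay below the other 12. new-gga-miRNA-0007 was at 22.7 to 42.1 TPM in the kidney and at least 68.8 TPM elsewhere. For new-gga-miRNA-0008 these values were 69.8 to 80.7 and at least 207 TPM, and for new-gga-miRNA-0009 22.0 to 39.9 and at least 48.0 TPM. Liver, the next tissue, exceeded kidney by 1.45, 1.49 and 0.89 on the log2 scale for these miRNAs in turn. The median of that difference over all 306 rows was 0.82, and the step of new-gga-miRNA-0009 was not called (limma, adjusted p = 0.0691). new-gga-miRNA-0012 was at 10.8, 0 and 0 TPM in the kidney and 36.8 to 136 TPM in the other 12 samples, and 2 kidney samples were thus listed at 0 beside one of 10.8 TPM. In 10 predicted miRNAs (8.2%) all 3 kidney samples were below the other 12, against 9.43% of all rows, and in none were they all above, against 2.1% of all rows.

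Of the 2 higher calls in the kidney, the larger was that of new-gga-miRNA-0005, whose kidney samples lay below those of the ovary. The other was that of new-gga-miRNA-0032, with 0, 8.51 and 9.44 TPM in the kidney, 2.63 TPM in Liver 2 and at most 0.434 TPM elsewhere, so that Kidney 1 was at 0 and the groups overlapped. Its kidney difference was 1.98 (SE 0.60, limma, adjusted p = 0.0170), and the call was lost without replicate 2 (adjusted p = 0.170) or 3 (0.302).

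Some abundant members were not called higher in any tissue. new-gga-miRNA-0011, the member ranking next after new-gga-miRNA-0010, was at 286, 331 and 242 TPM in the liver, 249, 298 and 204 in the brain, 226, 241 and 178 in the ovary, 174, 156 and 228 in the spleen and 50.8, 126 and 85.5 in the kidney. Its only call was the lower one in the kidney, which lay near the median of all rows. new-gga-miRNA-0132 was at 102, 0 and 159 TPM in the spleen and 43.7, 85.1 and 244 TPM in the brain, and it passed no test among tissues (adjusted p = 0.680).

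The values of new-gga-miRNA-0132 in the spleen are one of 10 cases in which a predicted miRNA was listed at 0 in a sample while another sample of the same tissue had at least 10 TPM. These made up 11.9% of the 84 pairs of a predicted miRNA and a tissue that reached 10 TPM, against 0.239% (2 of 837) for known miRNAs. new-gga-miRNA-0015 was listed at 61.9, 0 and 22.4 TPM in the spleen, 0, 0 and 14.0 in the liver and 0, 15.2 and 0 in the brain. new-gga-miRNA-0023 had 0, 0 and 48.6 TPM in the liver and 0 elsewhere, new-gga-miRNA-0027 had 0, 0 and 51.9 TPM in the ovary and 0 elsewhere, and new-gga-miRNA-0035 had 11.0, 10.4 and 0 TPM in the brain and 0 elsewhere. The remaining cases were new-gga-miRNA-0024 in the spleen and new-gga-miRNA-0006 and new-gga-miRNA-0012 in the kidney. A level of 10 TPM is far above the worth of 3 reads, so counting error does not cover such gaps, and their cause was not tested. For this reason these rows are described as listed at 0, not as absent. Over all pairs with a mean of at least 10 TPM, the median coefficient of variation (CV) among 3 samples was 24.2% for predicted and 21.3% for known miRNAs, with 90th percentiles of 77.2% and 45.3%.

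**Figure D5:**
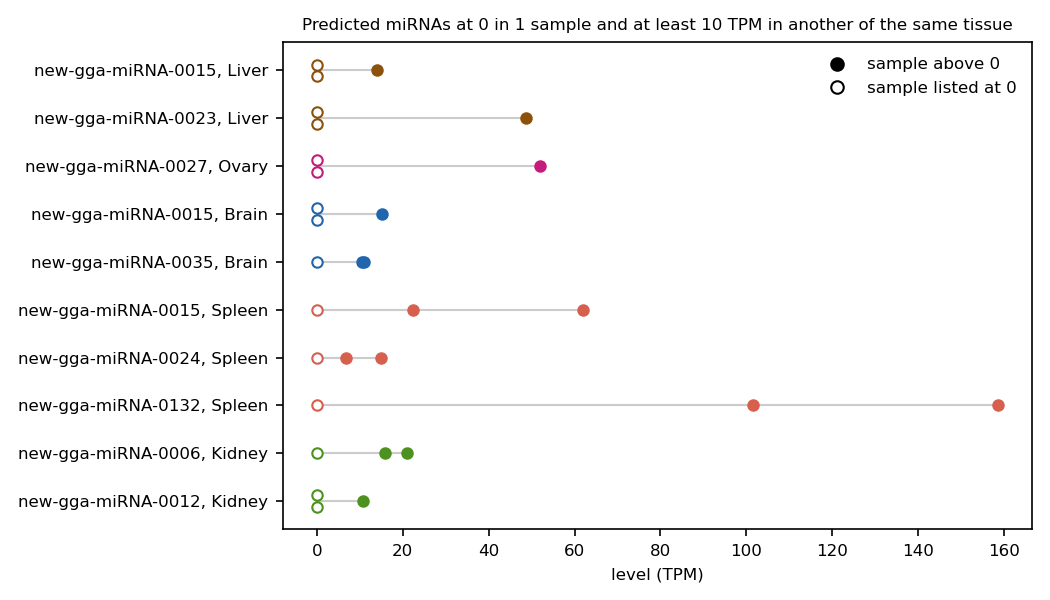
The 10 cases of a predicted miRNA and a tissue in which a sample was listed at 0 (open circles) and another had at least 10 TPM (filled circles). The axis gives the level in TPM, colours give the tissue and grey lines join the 3 samples. The widest gap was that of new-gga-miRNA-0132 in the spleen (102, 0 and 159 TPM).

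Some rows could not be told apart. new-gga-miRNA-0117, new-gga-miRNA-0118, new-gga-miRNA-0119 and new-gga-miRNA-0120 had equal values in all 15 samples, above 0 in 5 of them and at most 21 reads. new-gga-miRNA-0082 and new-gga-miRNA-0083 were equal with 16 reads in 1 sample. new-gga-miRNA-0110 and new-gga-miRNA-0111 equalled gga-miR-1573 (6 reads in 1 sample), new-gga-miRNA-0103 equalled gga-miR-7477-3p (9 reads in 1 sample), and new-gga-miRNA-0114 equalled gga-miR-1556, gga-miR-1792 and gga-miR-6666-3p (2 reads in 1 sample). Together these were 5 sets with 10 predicted miRNAs, in which equal values of a few reads in 1 sample can arise by coincidence. The star row new-gga-miRNA-0046* reached at most 0.515 TPM, and new-gga-miRNA-0046 was called higher in the brain with 2.08, 1.68 and 1.02 TPM. The groups overlapped for new-gga-miRNA-0046, with Ovary 2 at 1.33 TPM above Brain 3. Liver 2 was at 0.363 TPM, and the remaining samples were at 0.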

How the data were processed

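Small RNA reads of 15 samples (3 each of 5 tissues) were analysed from the processed table of the authors. Per the methods and notes of the authors, cutadapt left reads of 18 to 30 nt, Bowtie removed those matching other small RNA classes in Repbase, and known miRNAs were identified on the chicken genome with miRBase. Reads without annotation were placed on the zebra finch genome and further miRNAs predicted with miRDeep2 (score of at least 5, in at least 2 samples). The deposited values, which the authors call TPM, are RPM values, that is, reads scaled to a library total whose composition is not given in the sources used here. The design had assumed TPM, and the same log-scale tests serve RPM. Whole reads were recovered from the steps of the values. The genome build was not given in the sources used here. Of the columns of values in the table, 1 without a sample name was not used.

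Tissues were compared with limma 3.58.1 (R 4.3.3) on log2(TPM + 1), in 1 fit of 15 samples over 668 rows, with Benjamini-Hochberg adjustment over all rows. Calls needed an adjusted p of at most 0.05 and, for a tissue against the other 4, a 2-fold difference. Counts and sums per sample were compared with exact permutation tests (SciPy 1.17.1). The miRNAs named were the 10 of highest mean, up to 4 rises and 2 falls per tissue among called, non-overlapping members of at least 1 TPM, rows equal to another row, and the 2 known miRNAs closest to the largest rise of a tissue. Members and lists were chosen with earlier results of these data known, and new-gga-miRNA-0011, new-gga-miRNA-0015, new-gga-miRNA-0023, new-gga-miRNA-0027, new-gga-miRNA-0032, new-gga-miRNA-0035, new-gga-miRNA-0046, new-gga-miRNA-0053, new-gga-miRNA-0132 and those seen in 1 tissue were singled out after their values were seen. Alternatives were centring, a limit of 1 TPM on the mean, 0.1 as the pseudocount, edgeR 4.0.16 on recovered reads, unadjusted p, a replicate block and leaving out replicates. Leaving out Kidney 1 and rescaling to the listed miRNAs were chosen after seeing the data. The main limma fit, the edgeR fit and the limma fit with a replicate block were run on a simulated data set with changes in the brain only. Its spread between samples was a fixed setting, not taken from these data. The other alternatives were not run on simulated data. No pair of replicates agreed within sampling noise. The floors cover counting error only, whereas the SD and SE values measure the spread between samples.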

Additional observations from a re-analysis of the deposited data

How the results depend on the processing

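For the comparisons chosen by the naming rule, all 218 alternative values kept their direction and side of the threshold. The rule took called, non-overlapping members with large differences and the 10 of highest mean, so this outcome was largely set by the choice. It also took new-gga-miRNA-0021, new-gga-miRNA-0034 and new-gga-miRNA-0133, which were at 0 outside 1 tissue. For 15 further calls named in the text, 134 alternative values kept the direction and side of the threshold, and 14 kept the direction only. These calls include the 4 falls of new-gga-miRNA-0021, which were set by its brain values. Those 14 were the kidney falls of new-gga-miRNA-0001, 0002, 0010, 0011 and 0021 and the brain rise of new-gga-miRNA-0046 under centring, the 4 falls of new-gga-miRNA-0021 in edgeR, and new-gga-miRNA-0032 in the kidney and new-gga-miRNA-0053 in the ovary without replicate 2 or 3. Counts of calls moved more. A pseudocount of 0.1 gave 35 calls in the liver, 20 in the ovary, 50 in the brain, 23 in the spleen and 36 in the kidney, and edgeR on recovered reads gave 31, 15, 58, 20 and 19. The same edgeR test called 170, 115, 311, 138 and 183 of all 668 rows. Centring on the median miRNA gave 14 calls in the ovary, 11 in the kidney and 104 among the 5 tissues. Centring shifts rows at 0 too, so these counts are not fully comparable with the main ones, and the 104 is not comparable with the 66. Restricting the table to a mean of at least 1 TPM gave 30 among the tissues, of 37 tested. Leaving out each replicate number in turn gave 49 to 58 calls among the tissues, 18 to 20 in the liver, 8 to 9 in the ovary, 25 to 31 in the brain, 11 to 14 in the spleen and 18 to 21 in the kidney. Without Kidney 1 the counts, in the same order, were 55, 18, 10, 27, 13 and 20. Except for edgeR, counts over all 668 rows are not given here for these alternatives. The changes are therefore not read as particular to the members.

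For the number detected per sample, the ovary difference changed sign at a limit of 1 TPM (-1.58) and without Kidney 1 (-1.33), and was 0 to 1.125 without 1 replicate number. Without Kidney 1 the kidney difference was -22.4 (adjusted p = 0.0549 in the exact permutation test, with fewer splits possible). Without 1 replicate number the brain difference was 18.8 to 27.5 and the kidney difference -25.6 to -21.2, and that of the summed TPM in the ovary 116364 to 159762, none of which passed with 45 splits (smallest unadjusted p 0.0222). Without new-gga-miRNA-0001 the summed difference was 7100 TPM in the liver, -6301 in the ovary, 18345 in the spleen (adjusted p = 0.0110) and -15754 in the kidney (adjusted p = 0.0275).

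The replicate numbers were not taken as pairs, and the labels do not say whether a number marks 1 bird. Same-numbered samples of 2 tissues had correlated deviations above 0.1 in 12 of 30 pairs (r -0.21 to 0.28, median 0.06), with all 3 pairs above 0.1 for liver and kidney (0.17 to 0.28) and for ovary and brain (0.13 to 0.21). With the replicate number as a block, 62 members differed among the tissues and 18, 7, 27, 13 and 21 were called in the liver, ovary, brain, spleen and kidney. Counts over all rows are not given here for the block, so these are not read as particular to the members. In the permutation tests within the block, the differences in number detected stayed at 22.7 for the brain and -23.6 for the kidney (adjusted p = 0.0400 for both). With 3 samples per tissue, a p that missed the threshold does not show that tissues were alike, and levels below 0.230 TPM rest on fewer than 3 reads.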
